A study of Rattus norvegicus with 10 samples.

Results

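The releasing and inhibiting hormones of the hypothalamus were followed through 6 genes, Crh, Trh, Trhr, Ghrh, Sst and Gnrh1, of the 14217 genes that the array annotation names. Every probe set of the rat genome array that this annotation assigns to one of these genes alone was taken, which gave 9 of the 31042 probe sets tested (3 for Trhr, 2 for Gnrh1 and 1 each for Crh, Trh, Ghrh and Sst). There were 0 probe sets that name one of the 6 together with another gene. Male Wistar rats entered the study at 3 weeks of age and were first accustomed to powdered feed. One group of 5 rats then received solid chow for 8 days (C group, Chow 1 to Chow 5), while the other 5 stayed on powder (P group, Powder 1 to Powder 5). The hypothalamus was taken under isoflurane at 4 weeks of age in both groups, and its total RNA was hybridized to 1 array per rat, each array from a separate animal. The comparison addresses whether hypothalamic mRNA differs between rats fed chow, which has to be chewed, and rats fed powder.

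Trhr encodes a receptor, that of thyrotropin-releasing hormone, and is counted here among the hormone genes. The peptides of the other genes are the means by which the hypothalamus controls the anterior pituitary. Neurons of the paraventricular, arcuate, periventricular and preoptic regions release them from terminals in the median eminence into the portal vessels, and the pituitary answers with hormones for the adrenal cortex, the thyroid, growth and the gonads. Corticotropin-releasing hormone and thyrotropin-releasing hormone (TRH) are also transmitters of neurons that project to autonomic centers, and somatostatin is made by inhibitory neurons in many regions of the brain. Since the samples are whole tissue, fewer cells of a type and less RNA per cell cannot be told apart.

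In the C group, Crh was 0.18 lower on the log2 scale than in the P group (standard error, SE, 0.16), Trh was 0.09 lower (SE 0.08), and 1 probe set of Trhr was 0.08 lower (SE 0.06). Rank products, the kind of test used in the study and written anew here, called these 3 of the 9 probe sets lower in the C group, beside 0.802% of all probe sets, and 0 higher, at a false discovery rate (FDR) below 0.05. The calls of Trh and Trhr lay close to that limit and could fall on its other side in the program the study used. Sst was 0.06 lower (SE 0.06) and was not called. Ghrh, Gnrh1 and the other probe sets of Trhr were flat over the rats and carried no information on the diet. For Crh, Trh, Trhr and Sst the C and P rats overlapped, and no difference passed an exact permutation test over rats.

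The state of the 9 probe sets was set by the summarization that the authors used. It models the probes of a set with 1 common factor, and where the probes share no signal it returns almost the same value for every array. A flat probe set, defined here by a standard deviation (SD) below 0.001 over the 10 rats, therefore says neither that the gene is silent nor that it is unchanged. Of all 31042 probe sets, 92.6% were flat and 4.48% varied with an SD above 0.1. Among the hormone genes 5 probe sets were flat, with SDs from 9.71e-05 to 0.00029, and 4 varied, with SDs from 0.11 for Sst to 0.26 for Crh. The spread of Crh was larger than that of 99.0% of all probe sets. Crh, Trh, Trhr and Sst thus had 1 varying probe set each, which stands for the gene in the following. Pairwise correlations between arrays were 0.997 to 0.999, and array medians lay between 7.37 and 7.38.

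**Figure D1:**
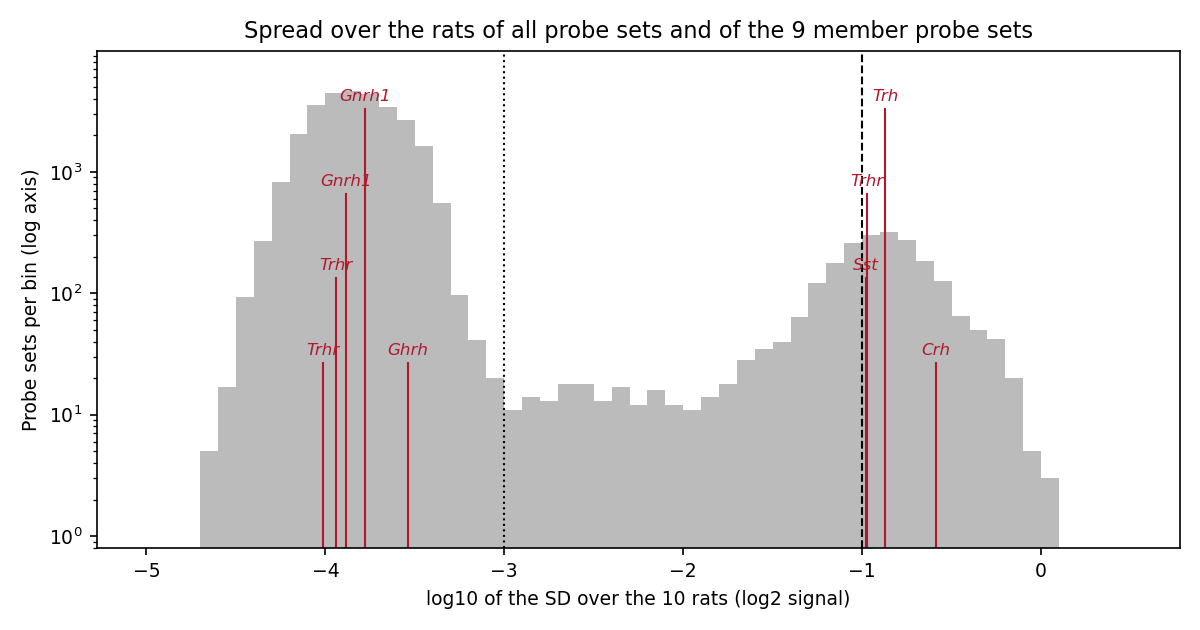
Distribution of the spread over the 10 rats for all 31042 probe sets (grey bars, probe sets per bin on a log axis) against log10 of the SD in log2 signal. Red lines mark the 9 probe sets of the hormone genes (their heights only separate the names), the dotted line the limit of 0.001 for flat and the dashed line that of 0.1 for varying: Crh, Trh, Trhr and Sst each have 1 line in the right-hand group, and the other 5 lines lie in the flat group.

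Crh encodes corticotropin-releasing hormone, the peptide of the stress axis that makes the pituitary release corticotropin. The log2 signals of Crh (1369303_at) in the C group were 7.10, 7.50, 7.62, 7.39 and 7.31 in Chow 1 to Chow 5, and those in the P group 7.84, 7.71, 7.28, 7.20 and 7.78 in Powder 1 to Powder 5. The P group fell apart into 3 rats with high values, Powder 1, Powder 2 and Powder 5, and 2 rats with low ones, Powder 3 and Powder 4, and 4 of 5 C rats lay between them. The group means were 7.38 ± 0.20 (SD, n = 5) in the C group and 7.56 ± 0.30 (SD, n = 5) in the P group. The difference of -0.18 had a 95% interval from -0.53 to 0.17, which as a change in signal is -11.7% with an interval from -30.9% to 12.8%. Of the C rats, 4 of 5 lay below the mean of the P group, but Chow 1 alone lay below all P rats. Rank products gave an FDR of 0.00487 and the exact two-sided permutation test p = 0.294. From the lowest to the highest rat Crh changed 1.67-fold, which was the widest range of the 4 varying hormone genes.

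The call of Crh held in 7 of the 10 cases in which 1 rat was left out. It was lost without Powder 1 (difference -0.11, FDR 0.0862), without Powder 2 (-0.14, FDR 0.0567) and without Powder 5 (-0.12, FDR 0.0695), which were the 3 P rats with high Crh. Without both Chow 1 and Powder 1, the lowest and the highest rat, the difference was -0.04 and Crh was not called. The P rats with high Crh were also high in Tnnt1, a troponin gene that marks thalamic neurons in the rat brain: its log2 signals were 7.67, 7.60 and 7.38 in Powder 1, Powder 2 and Powder 5 against 6.77 and 6.37 in Powder 3 and Powder 4, and 6.53 to 6.87 in the C group. Of the 9 thalamic markers measured, 4 were flat and 2 varied, Tnnt1 and Gbx2. The mean deviation of these 2 was 0.20 to 0.64 in those 3 P rats, -0.41 and -0.08 in the other P rats and -0.28 to 0.01 in the C group. In Powder 2 and Powder 5 this mean was positive through Tnnt1 alone, and Gbx2 was below its own mean there. Within the C group Tnnt1 did not follow Crh (r = -0.027), whereas r was 0.963 in the P group. The part of these markers in the difference of Crh was not tested.

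Trh encodes the precursor of TRH, a peptide of the thyroid axis that is finished by closing its N-terminal glutamine into pyroglutamate and by amidation of its C-terminus. Its promoter is given because Trh was called with Crh, and because the cAMP response element is the motif through which CREB acts on several neuropeptide genes. The RefSeq table of promoters, built on GRCr8 with windows from 250 bases before to 50 after the start, held 3 of the 6 genes (Trh, Ghrh and Sst). The full element, TGACGTCA, was in 1.83% of its 33469 promoters, and its shorter core, TGACG or CGTCA on the other strand, which lies within the full element, was in 21.2%. In the stretch of the Trh promoter shown, chr4:126301763-126301862 on the minus strand, 1 core was found on the other strand beginning 74 bases before the start, and it is in capitals; the full element was not found.
Trh: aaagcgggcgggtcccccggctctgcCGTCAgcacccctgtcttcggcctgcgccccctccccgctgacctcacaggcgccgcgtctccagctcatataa
A match of letters is a description and not a binding site.

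The log2 signals of Trh (1368912_at) were 9.04, 9.14, 9.32, 9.24 and 9.38 in Chow 1 to Chow 5, and 9.52, 9.34, 9.26, 9.16 and 9.28 in Powder 1 to Powder 5. Chow 1 and Chow 2 lay below all P rats and Powder 1 above all C rats, while the other 7 rats overlapped. The means were 9.22 ± 0.13 (SD, n = 5) and 9.31 ± 0.13 (SD, n = 5), and the difference of -0.09 had a 95% interval from -0.27 to 0.10, or -5.92% in signal (interval -17.3% to 7.08%). Rank products called Trh with an FDR of 0.0398, close to the limit, and the exact two-sided permutation test gave p = 0.341. The call held in 3 of the 10 cases with 1 rat left out, those without Chow 3, Chow 5 or Powder 4, and was lost without any other rat. The difference shrank from -0.09 to -0.04 without Chow 1 or without Powder 1, and it was 0.01, of the opposite sign, without both.

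Trhr encodes the receptor of TRH, through which the peptide acts on pituitary cells and on neurons. In the varying probe set (1369751_at) the log2 signals were 8.81, 8.69, 8.84, 8.56 and 8.86 in Chow 1 to Chow 5, and 8.92, 8.82, 8.78, 8.76 and 8.90 in Powder 1 to Powder 5. The P rats were closer together than the C rats, of which Chow 2 and Chow 4 lay below all of them and the other 3 among them. The means were 8.75 ± 0.13 (SD, n = 5) and 8.83 ± 0.07 (SD, n = 5), but the medians were 8.81 and 8.82. The difference of -0.08 had a 95% interval from -0.23 to 0.06, or -5.44% in signal (interval -14.5% to 4.54%). Its FDR was 0.0460 and its exact two-sided permutation p = 0.270. The call held in 4 of 10 cases with 1 rat left out and was lost without Chow 2, Chow 4, Powder 1, Powder 2, Powder 4 or Powder 5. Without Chow 4 the difference was -0.03, and with quantile normalization Trhr had an FDR of 0.0570. The remaining probe sets of Trhr (1370736_s_at and 1387682_at) were flat, at 6.35 and 6.01 in all rats. They could therefore neither repeat nor contradict the pattern of the varying probe set.

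Sst encodes somatostatin, which inhibits the release of growth hormone and of thyrotropin. The gene is the textbook target of the cAMP response element, and the full TGACGTCA, in capitals, was found once in the window of Sst, beginning at base 3 counted from the RefSeq start. The 30 bases around it are chr11:90461537-90461566 on the plus strand of GRCr8.
Sst: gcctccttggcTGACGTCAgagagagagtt
The window of Ghrh held neither form of the motif.

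The log2 signals of Sst (1367762_at) were 10.02, 10.27, 10.31, 10.26 and 10.14 in Chow 1 to Chow 5, and 10.42, 10.27, 10.18, 10.24 and 10.19 in Powder 1 to Powder 5. Chow 1 and Chow 5 lay below all P rats, Powder 1 lay above all C rats, and the others overlapped. The means were 10.20 ± 0.12 (SD, n = 5) in the C group and 10.26 ± 0.09 (SD, n = 5) in the P group, whereas the median was higher in the C group, 10.26 against 10.24. The difference of -0.06 (95% interval -0.21 to 0.09, or -4.16% in signal) had an FDR of 0.171 and an exact two-sided permutation p = 0.397. With 1 rat left out it ranged from -0.09 to -0.02 and was called in 0 of 10 cases. A p or FDR that misses its limit does not show that the groups were alike: the interval of Sst in percent of signal ran from -13.5% to 6.19%.

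Ghrh encodes growth hormone-releasing hormone, the counterpart of somatostatin in the arcuate nucleus, and its only probe set (1387217_a_at) stood at a log2 signal of 7.23 in every rat. Gnrh1 encodes gonadotropin-releasing hormone, made by scattered preoptic neurons, and its 2 probe sets (1370417_at and 1387535_at) stood at 6.40 and 6.67. Among the 5 flat probe sets the widest range over the 10 rats was 0.000976, for Ghrh, and the size of the difference between groups was at most 6.66e-05. Diet could not be compared for these genes.

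**Figure D2:**
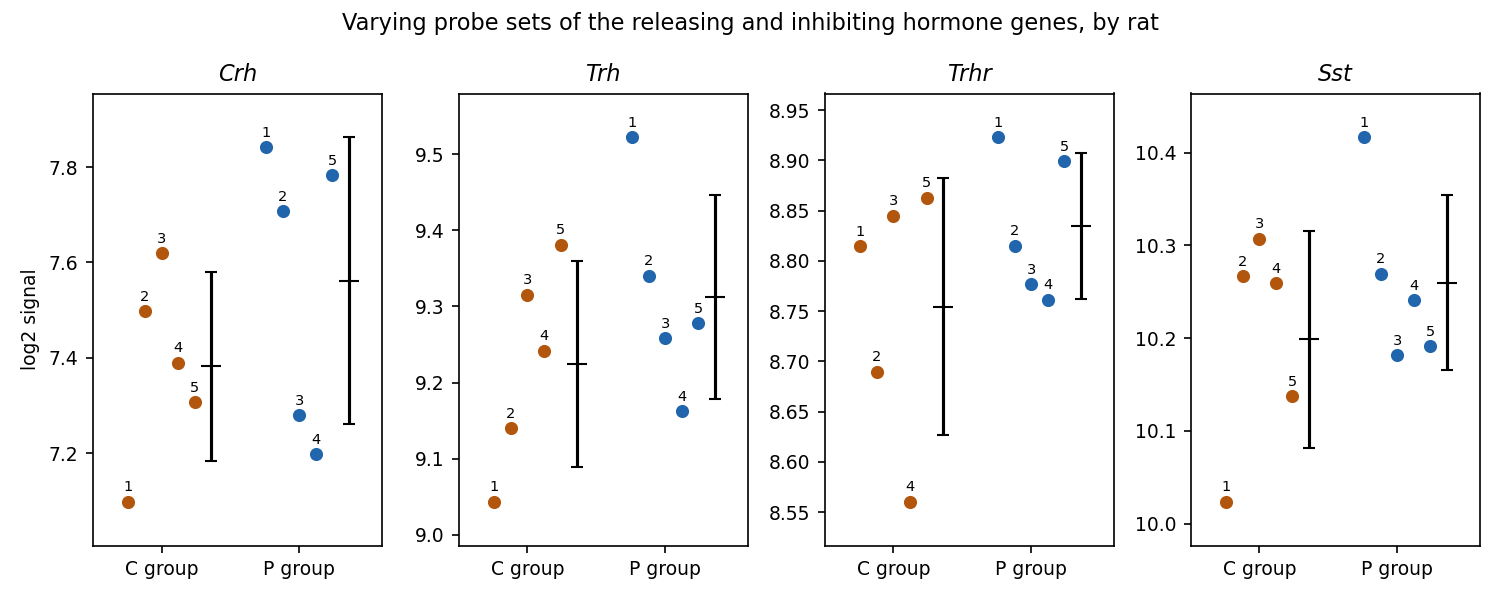
Log2 signal of Crh, Trh, Trhr and Sst in each rat of the C group (orange) and the P group (blue), numbered by rat, with the group mean and SD (n = 5) as a black bar beside the points; each panel has its own axis. Powder 1 is the highest rat in all 4 panels, Chow 1 is the lowest for Crh, Trh and Sst, and the groups overlap in every panel.

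Read against the whole table, the rank product calls covered 0.802% of probe sets as lower in C rats and 0.96% as higher. Among probe sets with an SD above 0.1 the share called lower was 14.6%, and 3 of the 4 varying hormone genes were called, the receptor gene Trhr among them. In the same varying probe sets the difference was negative in 34.9% and had a median of 0.03, whereas it was negative for all 4 hormone genes. The genes were put together with earlier results of these rats known, and the study itself had picked Crh and Trh from these arrays, so these counts are a description. Where only the varying probe sets entered the ranking, or with rank sums in place of rank products, 0 of the 9 were called. Limma called 0.0% of all probe sets, with a smallest adjusted p of 0.986, and its adjusted p was 0.9995 for each of the 9. At an unadjusted p below 0.05 it had 1100 probe sets, and 0 of the 9. An exact test of 5 against 5 rats cannot give a p below 0.00794.

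**Figure D3:**
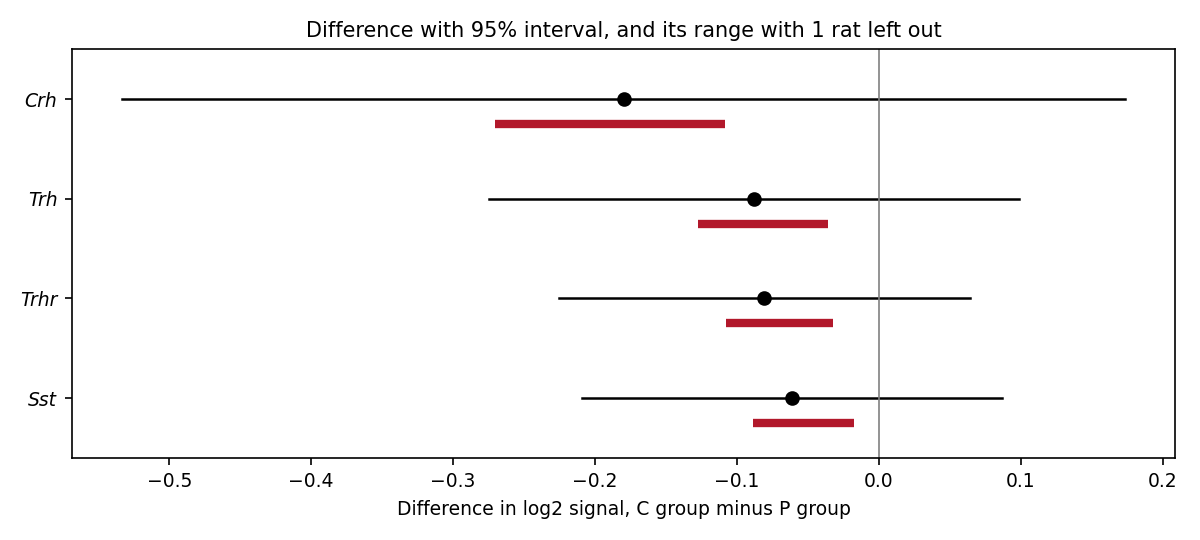
Difference in log2 signal, C group minus P group, for the 4 varying genes: black points with thin lines are the estimates with 95% intervals of the linear model (n = 5 per group), and red bars span the estimates with 1 rat left out in turn. Every interval includes 0, and the red bars stay below 0, reaching from -0.27 to -0.11 for Crh and from -0.09 to -0.02 for Sst.

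The 4 varying genes pointed to the same rats. Powder 1 had the highest value of all 4, and Chow 1 the lowest of Crh, Trh and Sst but only the fifth lowest of Trhr, where Chow 4 was lowest. The mean deviation of the 4 genes from their own means was 0.23 in Powder 1, 0.10 in Powder 5, 0.09 in Powder 2 and 0.08 in Chow 3. It was -0.20 in Chow 1, -0.10 in Powder 4, -0.08 in Chow 4, -0.07 in Powder 3, -0.04 in Chow 2 and -0.02 in Chow 5. Powder 1, Powder 2 and Chow 3 were above the mean in all 4 genes, and in Powder 3 all 4 genes were below it. Rats of both groups were therefore found at either side. Without Chow 1 and Powder 1 rank products called 0 of the 9 probe sets.

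**Figure D4:**
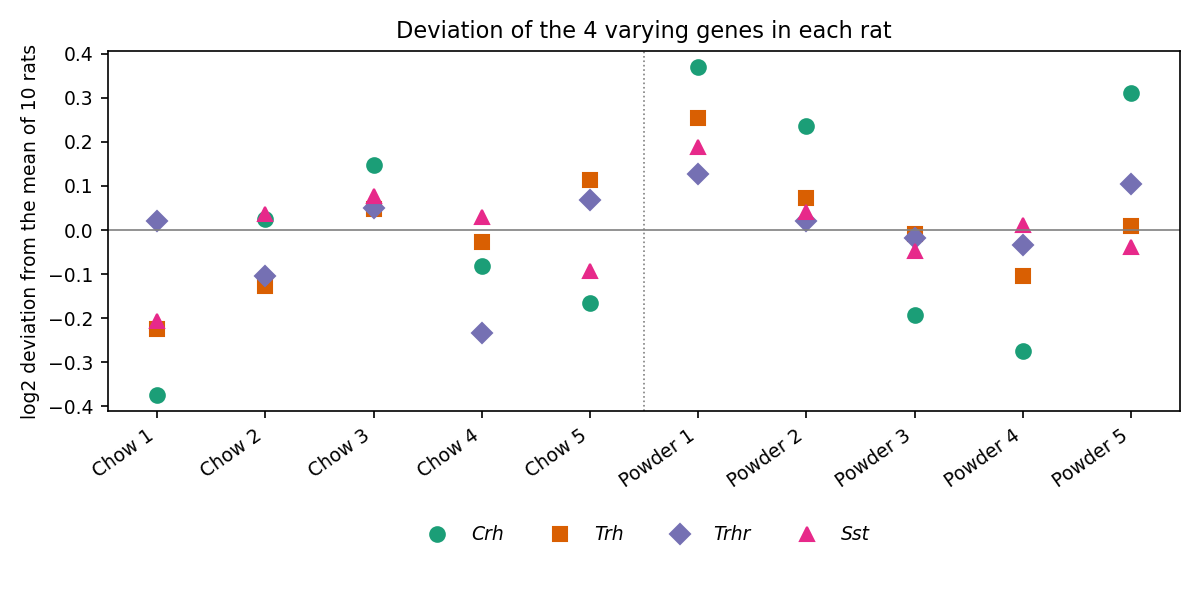
Deviation of Crh, Trh, Trhr and Sst from their own mean over the 10 rats (log2), one column of symbols per rat, C group to the left of the dotted line. All 4 symbols of Powder 1 lie above 0, Chow 1 has 3 of 4 symbols below -0.2, and Powder 3 and Powder 4 lie mostly below 0 in spite of their group.

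Across the 10 rats, the 6 pairs of these genes were compared by correlation; the values of a rat share 1 dissection and 1 array. Crh and Sst had the highest Pearson correlation, r = 0.718 (permutation p = 0.0146, adjusted 0.0778) with Spearman's rho 0.733 (permutation p = 0.0196, adjusted 0.0587). For Crh and Trh r was 0.691 (permutation p = 0.0259, adjusted 0.0778) and rho 0.661 (permutation p = 0.0438, adjusted 0.0876). For Trh and Sst r was 0.652 (permutation p = 0.0398, adjusted 0.0797) and rho 0.430 (permutation p = 0.218, adjusted 0.261). After Benjamini-Hochberg adjustment over the 6 pairs, 0 correlations passed.

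These 3 relations rested on Chow 1 and Powder 1. Without both rats, which lay farthest from the median on the first gene of each pair, r was 0.343 for Crh and Sst, 0.303 for Crh and Trh and -0.318 for Trh and Sst. Trh and its receptor had r = 0.493 (permutation p = 0.143, adjusted 0.215), rho 0.758 (permutation p = 0.0158, adjusted 0.0587) and r = 0.557 without the same rats. Crh and Trhr had r = 0.414 (permutation p = 0.233, adjusted 0.280), rho 0.576 (permutation p = 0.0899, adjusted 0.135) and r = 0.384 without them. For Trhr and Sst r was 0.040 (permutation p = 0.892, adjusted 0.892) and rho 0.152 (permutation p = 0.685, adjusted 0.685), and without Chow 2 and Chow 4, the farthest on Trhr, r was 0.381. After subtraction of the group means r lay between -0.09 for Trhr and Sst and 0.68 for Crh and Sst.

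For each varying gene the 3 genes with the highest r over the 10 rats were sought among the 1015 varying probe sets that name a single gene, as a description without a test. Trh was followed most closely by Qpct, glutaminyl cyclase, the enzyme that forms N-terminal pyroglutamate as in TRH itself: r was 0.950, and 0.860 without Chow 1 and Powder 1. The log2 signals of Qpct were 9.24, 9.41, 9.50, 9.42 and 9.67 in Chow 1 to Chow 5 and 9.74, 9.61, 9.42, 9.43 and 9.54 in Powder 1 to Powder 5, so that Chow 1 was again lowest and Powder 1 highest. Drc12 (r = 0.915) and Tmem212 (r = 0.903), which are expressed in ciliated ependymal cells, came next to Trh and had r of 0.681 and 0.733 without both rats. Tmem212 is also 1 of the 4 varying genes in the list of tanycyte and ependymal markers, with Col25a1, Crym and Rarres2. The mean deviation of these 4 did not follow Trh. It was highest in Chow 1, at 0.23, where Trh and Tmem212 were lowest, and -0.03 in Powder 1, where both were highest. In these rats the mean was set by the other genes of the list and does not describe Tmem212.

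Crh was most like Fam149a (r = 0.927, and 0.865 without Chow 1 and Powder 1), Oxt, the oxytocin gene of magnocellular neurons (0.838 and 0.761), and Tnnt1 (0.811 and 0.786). The likeness with Tnnt1 was found in the P group alone, with r = 0.963 there and -0.027 in the C group. Oxt had log2 signals of 10.12 to 10.46 in the C group and 10.26 to 10.74 in the P group, with Powder 1 and Powder 5 highest as for Crh. Trhr was most like Fbxo11, a ubiquitin ligase component (0.883, and 0.942 without Chow 2 and Chow 4), Gad1, the GABA-synthesizing enzyme (0.841 and 0.891), and Fxyd6 (0.817 and 0.416). Fbxo11 was at 9.77 in Chow 4 and from 10.37 to 10.52 in the other rats.

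Sst was most like Ak7, an adenylate kinase of cilia (0.848, and 0.382 without Chow 1 and Powder 1), Hcrt, the orexin precursor of the lateral hypothalamus (0.825 and 0.816), and Cxxc4 (0.813 and 0.653). In Hcrt, Chow 1 was at 9.94 and the other rats at 10.57 to 10.96. Of the 12 likenesses, those of Sst with Ak7 and of Trhr with Fxyd6 fell below an r of 0.5 when the rats named were left out.

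**Figure D5:**
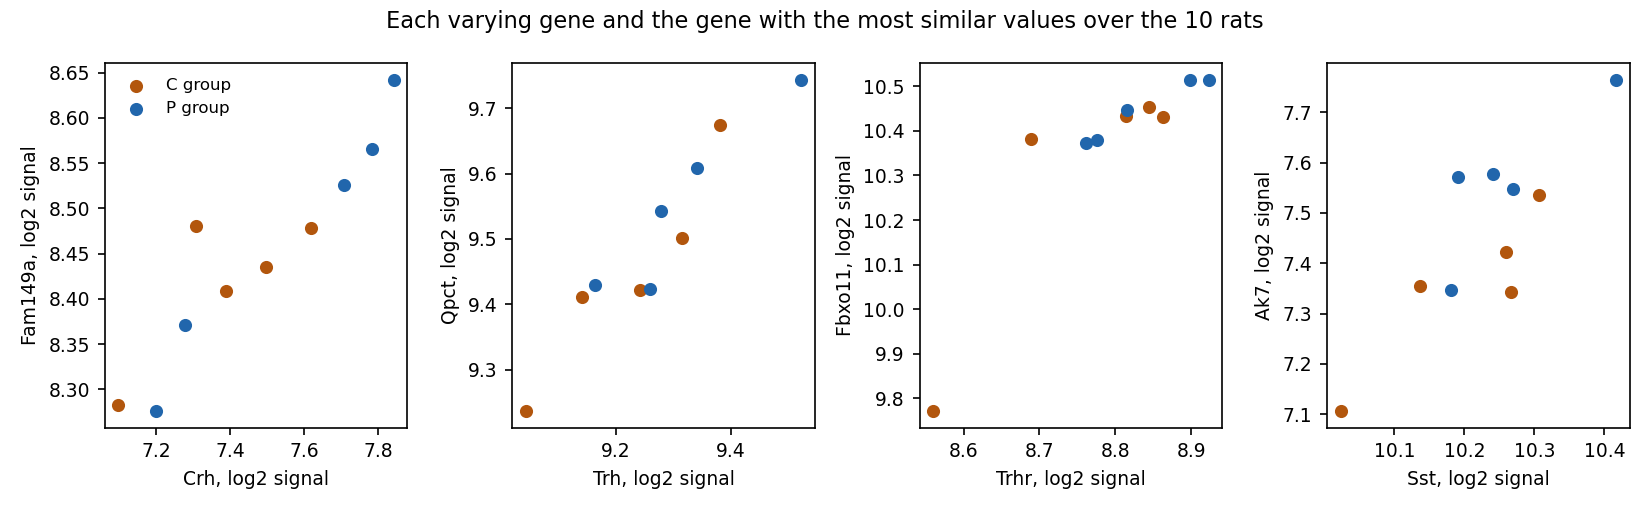
Log2 signal of each varying hormone gene (horizontal axis) against the gene with the most similar values over the 10 rats (vertical axis), C rats in orange and P rats in blue. Qpct rises with Trh over all rats (r = 0.950), while for Fbxo11 against Trhr and for Ak7 against Sst single rats at the ends of the range lie far from the others.

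Of 65 further genes listed for the 4 hormone axes, for transcription factors of neuroendocrine neurons and for peptide processing, 52 were matched to a probe set, 41 were flat and 4 varied. Rank products called 1 of the 52 higher and 3 lower in C rats, beside 0.96% and 0.802% of all probe sets. The median difference was 1.83e-06 over the 52, -2.72e-06 over all probe sets and -6.66e-05 over the 9 of the hormone genes, each set by flat values. In the corticotropin-releasing axis all 7 matched genes were flat, including the glucocorticoid receptor Nr3c1 and the binding protein Crhbp. All 9 matched genes of the growth hormone axis were flat too, the somatostatin receptors Sstr1 to Sstr5 among them. Of the 9 in the gonadotropin-releasing axis, Npvf, the precursor of gonadotropin-inhibiting RFamide peptides, varied but was not called, with a difference of 0.02 (SE 0.07).

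In the thyrotropin-releasing axis 8 genes were matched and 6 were flat. Ttr, the thyroid hormone carrier transthyretin, was called higher in the C group, with means of 8.28 ± 1.05 (SD, n = 5) and 7.85 ± 0.74 (SD, n = 5) and a difference of 0.43 (SE 0.56, exact permutation p = 0.468). It ranged from 6.83 in Powder 4 to 9.50 in Chow 3, and of the 8 choroid plexus markers matched, Ttr among them, 6 were flat and Ttr alone varied. Dlx1, a homeobox factor of GABAergic neurons, was called lower by 0.12 (SE 0.07, FDR 0.0162, exact permutation p = 0.127), as 1 of 8 matched transcription factors. Of the 11 matched processing genes, Qpct was called lower with a difference of -0.10 (SE 0.09, FDR 0.0151, exact permutation p = 0.325). Vgf, a secretory granule protein, had a difference of -0.08 (SE 0.03, FDR 0.0179, exact permutation p = 0.0556), and all 5 C rats lay below the mean of the P group. The calls of Dlx1, Qpct and Vgf were lost without Chow 1 or without Powder 1, at -0.09 and -0.10 for Dlx1, -0.05 and -0.05 for Qpct and -0.05 and -0.07 for Vgf, and also without Powder 5, without Chow 4 for Dlx1, without Powder 2 for Qpct and without Powder 3 for Vgf. That of Ttr held with any 1 rat left out, at 0.12 to 0.70. The SD of Ttr over all rats was 0.89, larger than that of 99.98% of all probe sets. Leaving out single rats cannot tell a difference by diet from so wide a spread. The interval of its difference ran from -0.84 to 1.70, and Ttr was not called where only probe sets with an SD above 0.1 entered.

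Markers of the tissue and its neighbors were read in the same rats as the mean deviation of those that varied. Of 13 genes listed for hypothalamic neurons 11 were matched and 6 varied (Hcrt, Pmch, Avp, Oxt, Npy and Gal), and 5 of the 11 were called lower in the C group; their mean deviation was -0.16 to -0.01 in the C group and 0.001 to 0.15 in the P group, lowest in Chow 1 and highest in Powder 1 as for Crh, Trh and Sst. In Chow 1 the mean of these markers rested mainly on Hcrt, whose log2 signal was 9.94 there and 10.57 to 10.96 in the other rats. Hcrt and Oxt were also picked above for their likeness to Sst and Crh. The study had picked several of these markers from the same arrays, so their direction is not independent evidence. All 14 leptomeningeal genes varied and were called higher in the C group, yet their mean deviation overlapped between the groups, with -0.45 to 0.84 in the C group and -0.73 to 0.44 in the P group. It was 0.84 in Chow 1 and 0.67 in Chow 4 but -0.45 to -0.20 in the other 3 C rats, and it was 0.44 in Powder 3 and 0.26 in Powder 2 but -0.73 to -0.21 in the other 3 P rats. Chow 1 was highest and Powder 1 lowest, the reverse of Crh, Trh and Sst. The mean of the 5 varying cortical and hippocampal markers of 9 matched stood at 0.63 in Chow 1 and at -0.20 to 0.02 in the other rats. Of these 9 markers 2 were called higher and 2 lower in the C group, so the list did not move in 1 direction.

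Of 11 matched anterior pituitary markers 9 were flat, Gh1, Prl and Pou1f1 among them, and Tshb and Cga varied, with a mean deviation of 2.11 in Chow 4 and 0.95 in Chow 5 against -0.47 to -0.31 in the other rats. Both are also genes of the pars tuberalis, which lies on the median eminence. Of 8 matched striatal markers 4 were flat and 2 varied, at -0.12 to 0.10 in all rats. The mean of the 4 varying of 8 tanycyte and ependymal markers stood at 0.23 in Chow 1 and at -0.18 to 0.06 in the others. Of these 8 markers 1 was called higher and 1 lower in the C group. The part of these markers in the differences of the hormone genes was not tested.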

How the data were processed

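Hypothalamic RNA of 10 rats was measured on Affymetrix rat genome arrays. The authors summarized the scans by factor analysis (FARMS), and the deposited values are log2 signals, which were used as they are. They have no read depth, so precision comes from 5 rats per group. The table has 31099 probe sets, and the 57 that are hybridization controls were removed. Rank products, rewritten for these data rather than run in the study's own program (Python 3.11.15, numpy 2.4.6, pandas 2.3.3), took all 25 pairings between groups, were compared with 100 permutations of the values within each array, and were called at an FDR below 0.05 in each direction. Limma 3.58.1 in R 4.3.3 gave differences, intervals and p-values with Benjamini-Hochberg adjustment over 31042 probe sets. Single genes had exact permutation tests of the difference in means, and correlations had 100000 resamples (scipy 1.17.1). Figures were drawn with matplotlib 3.10.9. The scripts were tested on simulated arrays, with a pass limit set only where all probe sets had equal spread. These data differ from that setting, so the test does not show that the FDRs hold here. Columns were joined to rats by sample identifier, and 0 were left unmapped. A listed gene was read from its probe set with the highest mean. Named were the 6 hormone genes, listed pathway genes that were called or had an SD above 0.1, and the 3 genes most correlated with each varying hormone gene. The members and lists were chosen with earlier results of these data known. Alternatives were other normalizations, filters, tests and thresholds, a replicate block and rats left out. The same rat numbers in both groups did not pair the rats.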

Additional observations from a re-analysis of the deposited data

How the results depend on the processing

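The 3 calls among the hormone genes remained with median centring, with the controls included and with other sets of permutations, and 2 remained with quantile normalization (Crh and Trh). Only 1, Crh, was called among probe sets above the median level, without Chow 1 and Chow 4, and at an FDR below 0.01. There were 0 calls when only probe sets with an SD above 0.1 entered, with rank sums, with fold changes divided by the within-group SD, and without Chow 1 and Powder 1, an alternative chosen after seeing the data. With 1 rat left out the count ranged from 0 (without Powder 1, Powder 2 or Powder 5) to 3.

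Of the 4 pathway genes called, 0 remained among probe sets with an SD above 0.1, with rank sums and with scaling. The count was 1 without Chow 1 and Chow 4, 1 without Chow 1 and Powder 1 and 1 at an FDR below 0.01, and with 1 rat left out it ranged from 1 to 5. Limma and the exact tests called 0 of the hormone genes under all alternatives run.

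The rat numbers did not pair the rats (r of deviations -0.33 to 0.28 between rats of one number). With the numbers as a replicate block rank products called 2 hormone genes (Crh and Trhr) and 3 pathway genes, and limma 0.

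Without Chow 1 and Powder 1 the difference was 0.0097 for Trh, 0.022 for Sst and 0.00084 for Qpct, and r was -0.318 for Trh and Sst and -0.361 for Trhr and Sst, all of the opposite sign. On deviations from the group means r of Trhr and Sst was -0.094, and with 1 rat left out it ranged from -0.316 to 0.183. The difference of Npvf ranged from -0.023 to 0.057 with 1 rat left out (-0.023 without Chow 5 and without Powder 5). The count of correlations that passed adjustment was 1 without Chow 1 and Chow 4, and 0 to 2 with 1 rat left out. The cause was not tested. The number of arrays limits the precision, and flat probe sets allow no comparison.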
